A study of Mus musculus with 40 samples.

Results

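The 40 genes described here encode structural proteins of the sarcomere, the contractile unit of striated muscle, and of the Z-disc that bounds it, together with factors that fold, stabilise or cap its filaments. They were taken by name from a list of thin filament, thick filament, titin, M-band and Z-disc genes; the rule names the genes and uses no measured value, although the list was drawn up with earlier results of these data known. All 40 were found among the 23621 genes of the count table, and all 40 passed the filter on low counts in both muscles, which left 15097 genes to test in quadriceps and 14523 in gastrocnemius. Of the 40, 17 passed the test in at least 1 of 13 comparisons and 23 passed in none.

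The study asked how the time of day alters the response of mouse skeletal muscle to exercise, in C57BL/6 mice whose age and sex are not stated in the labels used here. The muscles were glycolytic and snap frozen. Quadriceps came from 8 groups of 3 libraries. Of these, 4 groups were sedentary mice taken at zeitgeber time (ZT, hours after lights on) 0, 4, 12 and 16. The other 4 groups had run to exhaustion on a treadmill, starting at ZT0 or ZT12 (the ZT0 and ZT12 sessions), and were taken at once (+0h) or 3 h later (+3h). Gastrocnemius came from 4 groups of 4 libraries, taken at ZT4 or ZT16 from mice that could use a running wheel either at night or in the daytime. No sedentary gastrocnemius was analysed here, so the wheel groups were compared with each other. ZT4 falls in the daytime and ZT16 at night, so at each time only mice of the matching schedule were within their access period. Effects of schedule or time of day therefore cannot be told apart from those of current access to a wheel. Nothing in the labels says how replicates were housed or paired, so libraries were treated as independent. The p-values set differences between groups against the spread between these libraries and take no account of shared housing.

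In a sarcomere, thin filaments of actin, tropomyosin and troponin are anchored at the Z-disc by alpha-actinin and slide past thick filaments of myosin, which are held at the M-band. Titin spans from Z-disc to M-band and nebulin runs along the thin filament, while leiomodins and tropomodulins act at the filament's pointed end. The kelch proteins Klhl40 and Klhl41 stabilise nebulin and leiomodin, and loss of either causes nemaline myopathy. At the Z-disc, telethonin (Tcap) binds titin, and myopalladin (Mypn), myotilin (Myot), myozenins and PDZ-LIM proteins link actinin to actin and to signalling proteins. Unc45b and Smyd1 are a chaperone and a methyltransferase needed to fold and assemble myosin.

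The libraries read as fast skeletal muscle. Myh4, the fastest myosin heavy chain, ran from 43391 to 85884 CPM (counts scaled to the library's size with TMM) over the 40 libraries, and Ckm, muscle creatine kinase, from 19774 to 28830.3. Myh7, the slow myosin heavy chain, ran from 5.36 to 942 CPM in quadriceps and from 100.1 to 534 in gastrocnemius. Of the cardiac markers, Nppa was 0 in every quadriceps library, Myh6 reached 7.61 CPM and Tnni3 0.276. In gastrocnemius, day wheel ZT16 replicate 4 stood apart with 11.5 CPM of Nppa and 9.50 of Myh6. Adipocyte markers summed to between 1413 and 4682 CPM in quadriceps and between 1621 and 3058 in gastrocnemius. Libraries held 27352875 to 79491649 counts in quadriceps and 45010256 to 70033483 in gastrocnemius.

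Together the 40 genes took 14.1% to 17.5% of all counts in quadriceps libraries and 16.1% to 17.4% in gastrocnemius. Acta1, skeletal muscle actin, took 2.59% to 3.48% by itself. Per kilobase of exon, the sedentary quadriceps levels ran from 6.89 CPM per kb for Myom3, an M-band protein of slow and intermediate fibres, to 19649 for Acta1. Next to Acta1 stood the fast troponin T gene Tnnt3 (15407), the fast troponin C gene Tnnc2 (11725), the regulatory light chain Mylpf (9763), the fast troponin I gene Tnni2 (8569) and the essential light chain Myl1 (5959). Titin (Ttn) and nebulin (Neb), whose transcripts are very long, stood at 91.9 and 189 CPM per kb. Of the actinins, fast-fibre Actn3 stood at 3145 and Actn2 at 183 CPM per kb. After Myom3, the lowest were the obscurin-like gene Obsl1 (9.94), the actin-bundling gene Synpo2 (31.0), the leiomodin Lmod2 (33.5) and Myoz2 (41.3).

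Most of the 40 varied little between replicates. The median SD of log2 CPM within groups was 0.13 for the 40 against 0.14 for all tested genes in quadriceps, and 0.09 against 0.12 in gastrocnemius. Some varied far more in quadriceps: Actc1 (SD 0.94), Myoz2 (0.79), Myom3 (0.79), Lmod2 (0.74), the myosin-binding protein Mybph (0.45), Actn2 (0.42) and Klhl40 (0.41).

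Some of these variable genes followed slow-fibre transcripts from library to library in some groups and not in others. The 9 slow fibre sarcomere genes (such as Myh7, Myl2 and Tnnt1, none of them among the 40) summed to between 46.0 and 2203 CPM in quadriceps and between 442 and 1646 in gastrocnemius. In sedentary ZT0 they summed to 1758, 181 and 569 CPM in replicates 1 to 3. Myoz2, a calcineurin-binding Z-disc protein of slow fibres, read 118, 25.8 and 60.8 CPM in the same 3 libraries, and Myom3 read 82.1, 21.0 and 48.9. Both were high in replicate 1 and low in replicate 2, as was the slow sum. Actn2, the alpha-actinin of slow and oxidative fibres, read 810.2, 343 and 750.3 CPM there.

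In sedentary ZT16 the slow sum was 2203, 675 and 137 CPM, Myom3 63.6, 63.2 and 15.48 CPM and Myoz2 94.4, 82.3 and 23.9, all lowest in replicate 3. Actn2 read 803, 889 and 485 CPM there and Mybpc1, the slow isoform of myosin-binding protein C, 1605, 1912 and 1199, also lowest in replicate 3 but highest in replicate 2. In treadmill +3h ZT0 the slow sum was 1515, 46.0 and 241 CPM, Myoz2 76.3, 10.5 and 25.4 CPM and Actn2 872, 348 and 474. Mybpc1 read 1629, 620.1 and 1053 CPM in those 3 libraries, and all 4 measures were highest in replicate 1 and lowest in replicate 2. In sedentary ZT12, where the slow sum was 379, 97.8 and 67.4 CPM, the order was the reverse for Actn2 (286, 306 and 402 CPM) and Mybpc1 (761, 1078 and 1121). At +3h ZT12 the slow sum was 197, 388 and 507 CPM, and Myom3 (38.9, 30.9 and 25.9 CPM) and Actn2 (747, 731 and 697) again ran the other way, while Myoz2 (31.5, 35.6 and 39.9) ran with it. None of Actn2, Myoz2, Myom3 and Mybpc1 passed the main test in any of the 13 comparisons, although their log2 fold changes reached -1.91 (Myoz2, sedentary ZT12 against ZT0, adjusted p 0.0541). Among alternatives, Actn2 passed there with DESeq2 (log2 fold change -0.94, adjusted p 0.0285) and without sedentary ZT0 replicate 2 (-1.24, adjusted p 0.0146). In both settings it also passed across the sedentary times. In whole muscle, fewer slow fibres in a piece and less slow-fibre RNA per fibre cannot be told apart. The slow-fibre level was also added to the fit as a covariate, an alternative chosen after seeing the data, and the outcome is given where it ends a call.

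**Figure D1:**
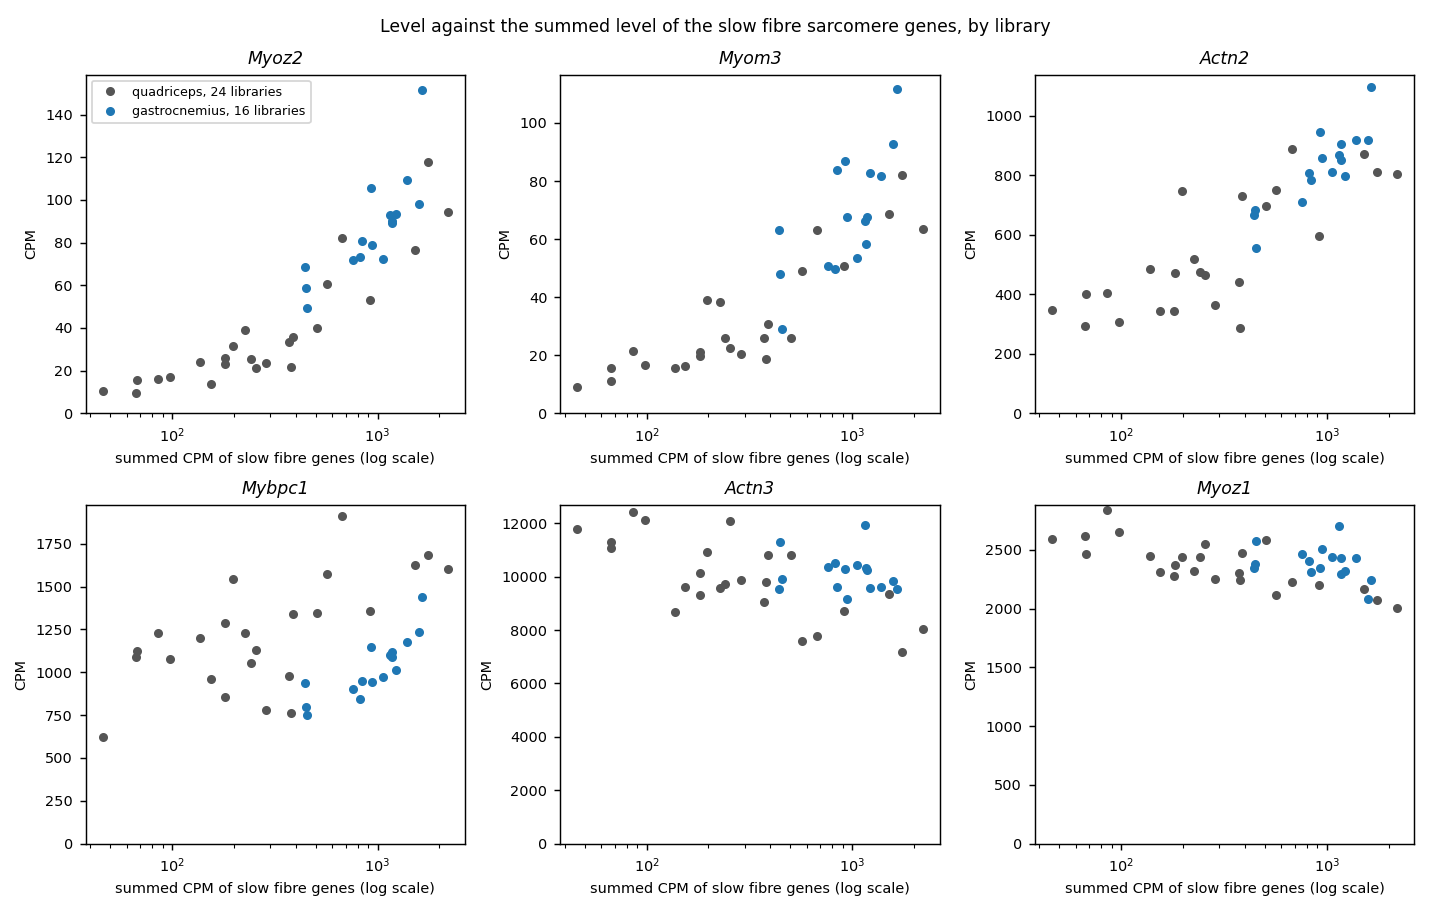
Level of 6 genes in each library (CPM, y axis) against the summed CPM of the 9 slow fibre sarcomere genes of that library (x axis, log scale), with 24 quadriceps libraries in grey and 16 gastrocnemius libraries in blue. The lowest Myoz2 and Myom3 levels lie at low slow sums and the highest at high ones, while Actn3 and Myoz1 show no such order. Among sedentary quadriceps libraries Actn3 was highest at a low slow sum (sedentary ZT12 replicate 2) and lowest at a high one (sedentary ZT0 replicate 1).

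Right after the treadmill few of the 40 genes passed. At +0h of the ZT0 session 2 of the 40 genes passed the test, both raised, against 6.82% of all tested genes (4.29% raised and 2.53% lowered). The groups of libraries did not overlap in 7 of the 40 genes, against 24.9% of all tested genes. The adjusted p given here and below is Benjamini-Hochberg adjusted over all tested genes, from edgeR's quasi-likelihood test, with a threshold of 0.05. Mybpc2, the fast isoform of myosin-binding protein C on the thick filament, read 6136, 6937 and 5488 CPM at +0h ZT0 against 4036, 5115 and 4712 in sedentary ZT0. The log2 fold change was 0.42 ± 0.12 (SE), adjusted p 0.0326. Unc45b, the myosin chaperone, read 525, 489 and 425 CPM against 387, 402 and 387, a log2 fold change of 0.29 ± 0.08 (SE) with adjusted p 0.0349. In both genes all 3 exercised libraries lay above all 3 sedentary ones.

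Neither call was firm. The Mybpc2 call was lost in 6 of 14 alternatives (adjusted p 0.00827 to 0.267 over the 14), among them those without sedentary ZT0 replicate 1 or 3 or treadmill +0h ZT0 replicate 1 or 2, the fit of the compared libraries alone and the comparison with sedentary ZT4. The Unc45b call was lost in 8 of 14 alternatives (adjusted p 0.00908 to 0.193 over the 14), among them those without sedentary ZT0 replicate 1 or 2 or 3 or treadmill +0h ZT0 replicate 1 or 2, the same further settings and the slow-fibre covariate. Beside these calls, 11 of 13 mitochondrially encoded genes were lower at +0h ZT0, where they summed to 101027, 103134 and 104963 CPM against 180511, 116014 and 146910.0 in sedentary ZT0. The 10 adipocyte markers, none of which passed, summed to 3235, 1494 and 3920.4 CPM against 1548, 2149 and 1485, and the slow-fibre genes to 155, 182 and 287 CPM against 1758, 181 and 569. The 6 macrophage markers, none of which passed, summed to 130.2, 127 and 151 CPM against 95.2, 107 and 103. Skeletal muscle markers, Acta1, Mylpf and Tnnt3 included, summed to 198968, 221425 and 178426 CPM against 157670, 175153 and 176341, groups that stood apart. The part of the skeletal muscle, mitochondrial, adipocyte and macrophage shifts in the 2 calls was not tested.

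At +0h of the ZT12 session none of the 40 passed edgeR's quasi-likelihood test, where 4.6% of all genes did (3.19% raised and 1.41% lowered). At an unadjusted p under 0.05, 10 did, and DESeq2 called 1. The share of all tested genes at an unadjusted p under 0.05 was not counted, here or below, so such counts have no background beside them. The log2 fold change was above 0 in 38 of the 40, with a median of 0.14 against 0.00 over all genes. Skeletal muscle markers, Acta1, Mylpf and Tnnt3 included, summed to 231800, 235267 and 237149 CPM against 182700, 207532 and 203192 in sedentary ZT12. Mitochondrially encoded genes summed to 96349, 96097 and 96969 CPM against 101018, 98080 and 112641. Satellite cell and regenerating fibre markers summed to 45.2, 47.3 and 48.6 CPM against 30.7, 35.2 and 37.4. These sums and the erythroid sum stood apart, and their part in the shift of the 40 was not tested. Against sedentary ZT16 in place of ZT12, 4 of the 40 passed, Actn3 among them, and without treadmill +0h ZT12 replicate 1 the count was 1. Klhl40, an adaptor that stabilises thin filament proteins, read 130.4, 125 and 138 CPM against 86.5, 95.8 and 103, groups that did not overlap, with adjusted p 0.524. Libraries did not overlap in 14 of the 40 genes, against 20.2% of all tested genes. The largest fold change, singled out after its values were seen, was that of Actc1, the cardiac actin that adult skeletal muscle keeps at a low level. It read 386, 2201 and 697 CPM at +0h ZT12 against 249, 209.7 and 367 in sedentary ZT12, a log2 fold change of 1.99 ± 0.76 (SE) with adjusted p 0.181. The group mean rested on replicate 2. At +0h ZT0 the gene read 726, 1456 and 246 CPM, again highest in replicate 2. The cardiac markers Myh6 and Tnnt2 reached at most 7.61 and 3.13 CPM in quadriceps.

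The difference between the +0h responses of the ZT12 and ZT0 sessions passed in none of the 40, as in 0% of all genes, by edgeR's quasi-likelihood test. At an unadjusted p under 0.05, 1 of the 40 did, and DESeq2 called 0.

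By 3 h after exhaustion, Klhl40, the Z-disc genes Mypn, Pdlim3 and Pdlim5 and the myosin chaperone Unc45b had risen in both sessions. In the ZT0 session 7 of the 40 passed, all raised, against 13.6% of all genes (6.96% raised and 6.63% lowered). In the ZT12 session 9 passed, all raised, against 17.2% of all genes (8.7% raised and 8.53% lowered). The 5 genes raised in both compare with 3.6% of all tested genes raised in both. The 2 comparisons share no library. Exercised and sedentary libraries stood apart in 12 of the 40 genes, against 30.7% of all tested genes, in the ZT0 session and in 14 of the 40 genes, against 32.9% of all tested genes, in the ZT12 session. The median log2 fold change of the 40 was 0.14 and 0.13, against 0.00 and 0.00 over all genes.

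Marker sums of other cell types also stood apart at +3h. In the ZT0 session the 10 adipocyte markers summed to 1914, 2438 and 2108 CPM against 1670.2, 1514 and 1455 in sedentary ZT4, with 1 of the 10 raised. The 9 smooth muscle and pericyte markers, Des included, summed to 3803, 3629 and 3523 CPM against 3383, 3068 and 3069, with 1 raised and 1 lowered. In the ZT12 session the 13 mitochondrially encoded genes summed to 135717, 125700.0 and 143850.0 CPM against 110845, 120271 and 114562 in sedentary ZT16, with 2 raised. The 7 endothelial markers summed to 261, 257 and 279.7 CPM against 244, 240.5 and 228, with 2 raised and 1 lowered. The 7 markers of satellite cells and regenerating fibres were lower in sum, at 50.7, 32.3 and 37.9 CPM against 61.9, 66.0 and 58.7, with 2 lowered. Skeletal muscle markers, Acta1, Mylpf and Tnnt3 included, summed to 215201, 230892 and 207198 CPM against 166084, 172871 and 189250. Each of these sums separated the exercised from the sedentary libraries, and their part in the +3h calls was not tested. At +3h ZT0, replicate 1 was highest in the tendon sum (883, 252 and 576 CPM) and the fibroblast and matrix sum (2398, 1108 and 1424). It was also highest in the satellite cell and regenerating fibre sum (60.5, 33.2 and 30.8 CPM). Their part was not tested either.

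Counted by role, of the 6 genes of thin filament length and ends, 3 rose at +3h ZT0 and 1 at +3h ZT12. Of the 14 Z-disc genes, 3 rose at +3h ZT0 and 5 at +3h ZT12, and of the 2 myosin chaperones, 1 in each session. Of the 7 actin, tropomyosin and troponin genes, none passed at +3h ZT0 by edgeR's quasi-likelihood test, nor at an unadjusted p under 0.05, and 1 rose at +3h ZT12. The 5 thick filament genes gave the same counts. Of the 6 titin and M-band genes, none passed in either session, and at an unadjusted p under 0.05 1 and 2 did. In a fit of the compared libraries alone, 4 of the 40 passed at +3h ZT0.

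**Figure D2:**
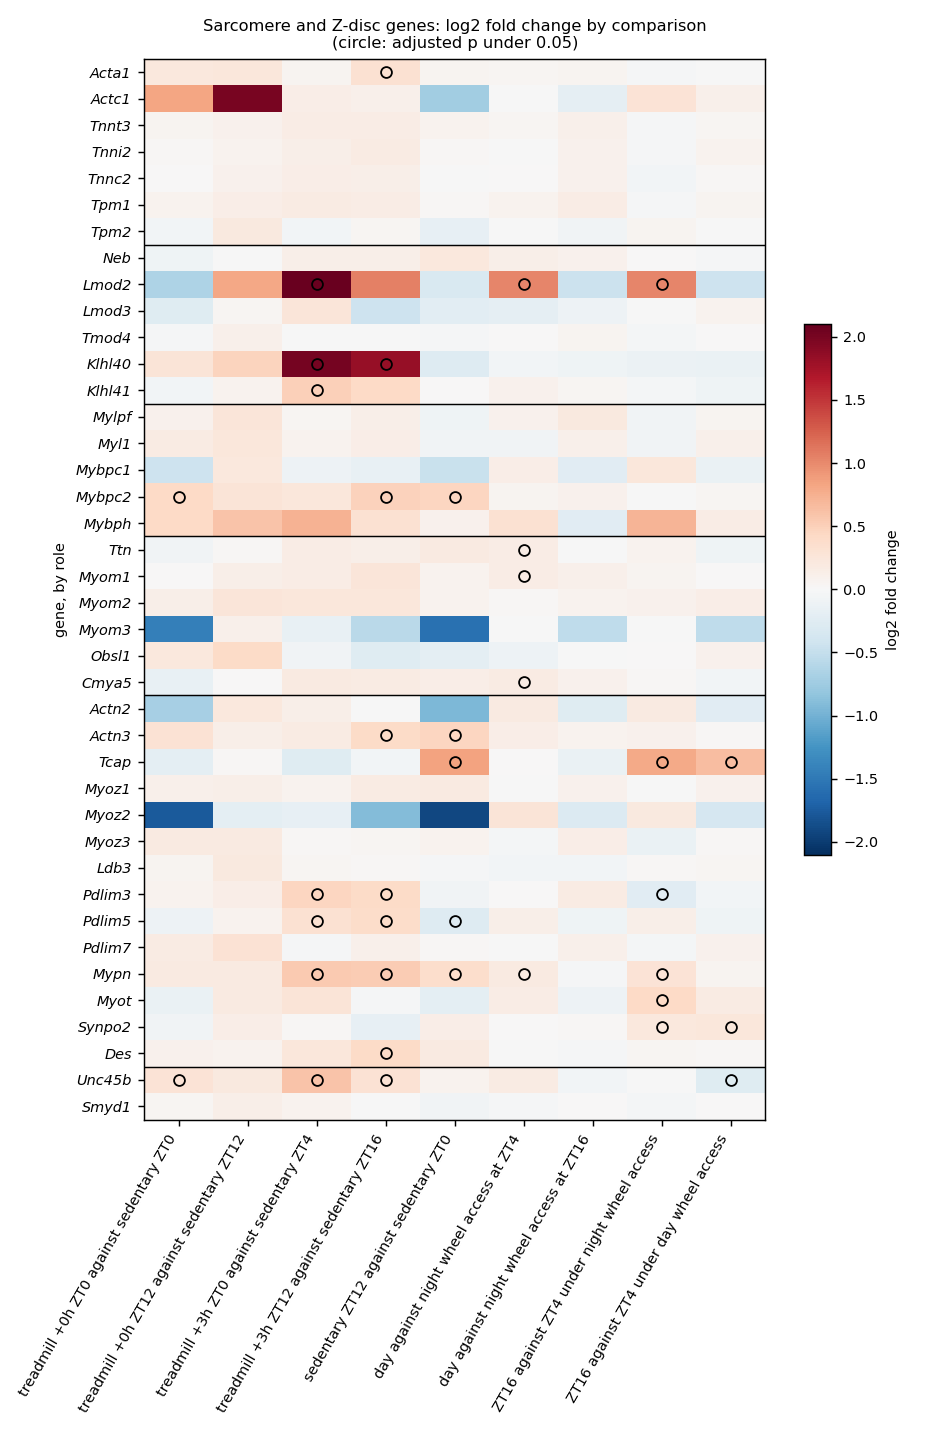
Log2 fold change (colour) of the 40 genes, in rows by role, in 9 comparisons, in columns; circles mark an adjusted p under 0.05. The +3h columns hold raised genes among the thin filament length regulators, the Z-disc genes and the chaperone Unc45b, with paler cells among the filament genes.

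Klhl40, the kelch protein that keeps leiomodin 3 and nebulin from degradation (chr9:121777499-121791200 in GRCm38.p6, from RefSeq), had the largest change of the 5. It read 871, 362 and 206 CPM at +3h ZT0 against 133, 111 and 113 in sedentary ZT4. In the ZT12 session it read 262, 392 and 434 CPM against 108, 89.8 and 109 in sedentary ZT16. No library of an exercised group overlapped its controls, and the exercised libraries of the ZT0 session spread over a wider range than those of the ZT12 session. The log2 fold changes were 2.01 ± 0.34 (SE) (adjusted p 0.000762) and 1.82 ± 0.33 (SE) (adjusted p 0.00106). The ZT0 call was lost in 1 of 14 alternatives (adjusted p 1.01e-07 to 0.13 over the 14), the fit of the compared libraries alone, and the ZT12 call in none. In all 6 sedentary ZT0 and ZT12 libraries, and in all 16 gastrocnemius libraries, Klhl40 stayed between 86.5 and 137 CPM.

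Its relative Klhl41, which stabilises nebulin, read 809, 474 and 413 CPM at +3h ZT0 against 410.0, 385 and 399 in sedentary ZT4, a log2 fold change of 0.51 ± 0.16 (SE) with adjusted p 0.0403. In the ZT12 session it read 482, 505 and 566 CPM against 405, 386 and 376, which did not overlap, with a log2 fold change of 0.41 and adjusted p 0.0843. Lmod2, a leiomodin that elongates thin filaments, read 407, 67.3 and 66.0 CPM at +3h ZT0 against 50.4, 33.3 and 44.3, a log2 fold change of 2.08 ± 0.62 (SE) with adjusted p 0.0358. In both genes replicate 1 was far above the other exercised libraries. The Klhl41 call was lost in 7 of 14 alternatives (adjusted p 0.00353 to 0.318 over the 14) and the Lmod2 call in 7 of 14 alternatives (adjusted p 0.00503 to 0.412 over the 14), in each gene among them those without treadmill +3h ZT0 replicate 1 or sedentary ZT4 replicate 1 or 2 or 3. In the ZT12 session Lmod2 read 159, 219 and 258 CPM against 111, 128 and 68.3 in sedentary ZT16, with no overlap and adjusted p 0.273.

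The other genes of the thin filament's length and ends did not pass. Nebulin (Neb) read 4868, 5308 and 4426 CPM at +3h ZT0 against 4254, 4330.1 and 4889, and 4949.9, 4943 and 4447 at +3h ZT12 against 4083, 4559 and 4474, so that the groups overlapped in both sessions. Its log2 fold changes were 0.12 and 0.13 (adjusted p 0.477 and 0.404). Lmod3, the leiomodin that Klhl40 protects, had log2 fold changes of 0.26 and -0.44, and the tropomodulin Tmod4, which caps the pointed end, 0.00 and -0.01.

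**Figure D3:**
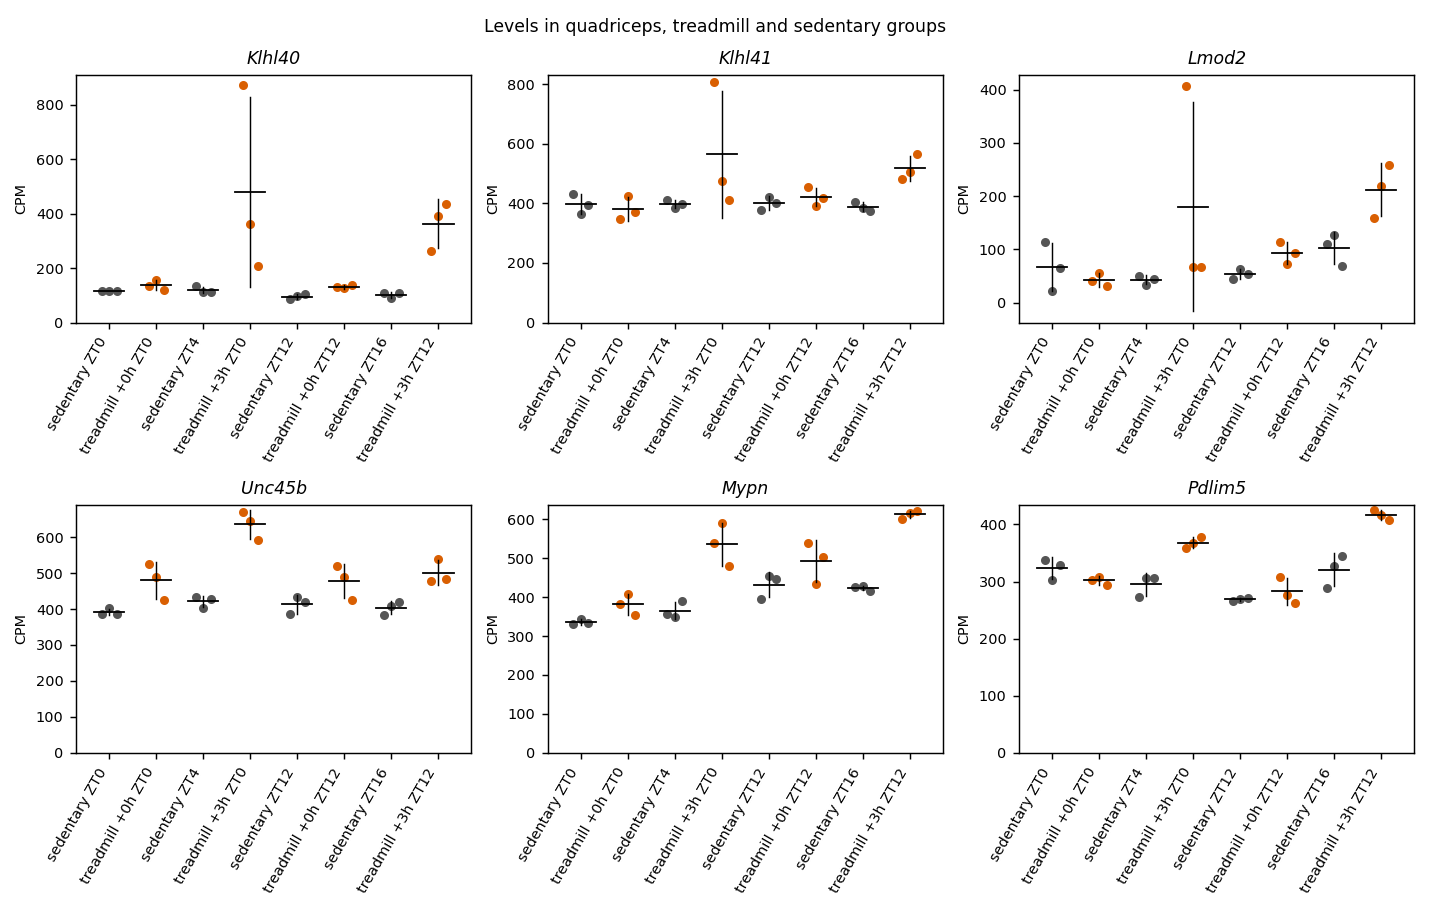
CPM (y axis, from 0 or just below) of 6 genes in each quadriceps library, with sedentary groups in grey and treadmill groups in orange; the horizontal line is the group mean and the vertical line 1 SD over 3 libraries. The +3h groups stand above their sedentary neighbours for Klhl40, Unc45b, Mypn and Pdlim5, while the +3h ZT0 means of Klhl41 and Lmod2 rest on a single high library.

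Among the Z-disc genes, Mypn, an actinin- and nebulin-binding protein, read 538, 590.3 and 479 CPM at +3h ZT0 against 357, 348 and 389, and 601, 616 and 620.3 at +3h ZT12 against 425, 428 and 417. The groups stood apart in both sessions, with log2 fold changes of 0.55 ± 0.08 (SE) (adjusted p 0.000127) and 0.53 ± 0.08 (SE) (adjusted p 0.000116), and neither call was lost in any of the 14 alternatives tried, left-out libraries included. Pdlim5, a PDZ-LIM protein that brings kinases to the Z-disc, read 359, 367 and 378 CPM against 272, 307 and 306 in the ZT0 session. At +3h ZT12 it read 426, 416 and 408 CPM against 288, 328 and 345. All exercised libraries exceeded their controls, and the log2 fold changes were 0.32 ± 0.07 (SE) (adjusted p 0.00392) and 0.38 ± 0.07 (SE) (adjusted p 0.000685). The first call was lost in 1 of 14 alternatives (adjusted p 0.00016 to 0.0819 over the 14), the comparison with sedentary ZT0, and the second in none.

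Pdlim3, the actinin-associated LIM protein, read 565, 516 and 434 CPM at +3h ZT0 against 359, 361 and 388, without overlap (log2 fold change 0.45 ± 0.11 (SE), adjusted p 0.00642). At +3h ZT12 it read 359.8, 418 and 442 CPM against 277, 274 and 371, where sedentary replicate 3 lay above exercised replicate 1 (log2 fold change 0.40 ± 0.11 (SE), adjusted p 0.0105). That second call was lost in 5 of 14 alternatives (adjusted p 0.00055 to 0.0976 over the 14): those without treadmill +3h ZT12 replicate 3 or sedentary ZT16 replicate 1 or 2, the fit of the compared libraries alone and the comparison with sedentary ZT12. Pdlim7, another PDZ-LIM gene, had log2 fold changes of -0.02 and 0.11 and passed in neither session.

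Unc45b, the myosin chaperone, read 669, 646 and 591 CPM at +3h ZT0 against 433, 403 and 428, a log2 fold change of 0.59 ± 0.08 (SE) with adjusted p 6.99e-05. At +3h ZT12 it read 477, 540.3 and 484 CPM against 384, 409 and 419.7, a log2 fold change of 0.31 ± 0.08 (SE) with adjusted p 0.0118. The groups did not overlap in either session. The ZT0 call was lost in no alternative and the ZT12 call in 2 of 14 alternatives (adjusted p 0.00343 to 0.0779 over the 14), those without treadmill +3h ZT12 replicate 2 or sedentary ZT16 replicate 1. Smyd1, its partner in myosin assembly, read 520.0, 565 and 546 CPM at +3h ZT0 against 475, 543 and 527 and 544, 536 and 466 at +3h ZT12 against 493, 507 and 562. These overlapped throughout, and the adjusted p was 0.65 and 0.942.

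A further 4 genes passed at +3h of the ZT12 session. Desmin (Des), the intermediate filament that ties neighbouring Z-discs together, read 3292, 3614 and 3903 CPM against 2580.0, 2996 and 2641 in sedentary ZT16. That is a log2 fold change of 0.40 ± 0.09 (SE), adjusted p 0.00293. In the ZT0 session it read 3341, 3248 and 3051 CPM against 2895, 2619.7 and 2616, which also stood apart, with adjusted p 0.0641. Acta1 read 32332, 38721 and 33118 CPM at +3h ZT12 against 26754, 27236 and 29878, a log2 fold change of 0.31 ± 0.10 (SE) with adjusted p 0.0333. Its call was lost in 6 of 14 alternatives (adjusted p 0.0134 to 0.186 over the 14): those without treadmill +3h ZT12 replicate 2 or 3 or sedentary ZT16 replicate 1 or 2, the fit of the compared libraries alone and the comparison with sedentary ZT12. The Des call was lost in none. In the ZT0 session Acta1 read 29927, 32791 and 28898 CPM against 26530.1, 30435 and 31496, overlapping groups with a log2 fold change of 0.05.

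Actn3 read 10939, 10795 and 10808 CPM at +3h ZT12 against 8050.3, 7785 and 8695 in sedentary ZT16, a log2 fold change of 0.41 ± 0.10 (SE) with adjusted p 0.00591. Mybpc2 read 6896, 7712 and 6451 CPM against 4548, 4764 and 5716, a log2 fold change of 0.49 ± 0.12 (SE) with adjusted p 0.00567. In both, every exercised library exceeded every sedentary ZT16 library. Both calls turned on the control: sedentary ZT12 mice, taken when the session began, read 9794, 12129 and 11068 CPM of Actn3 and 5960.1, 6325 and 6622 of Mybpc2. Against these the log2 fold changes were -0.020 and 0.16, and neither passed. Over the 14 alternatives the adjusted p ran from 0.000559 to 0.915 for Actn3 and from 0.000734 to 0.383 for Mybpc2, with no other loss.

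Titin and the Z-disc genes Actn2 and Myot did not pass the main test at +3h. Titin (Ttn) read 10857, 11947 and 10989.9 CPM at +3h ZT0 against 9091, 10379 and 10888, and 11739.9, 11894 and 10604 at +3h ZT12 against 10079.6, 10735 and 10527. The log2 fold changes were 0.15 and 0.13 (adjusted p 0.311 and 0.4), with overlapping groups. Actn2 read 747, 731 and 697 CPM at +3h ZT12 against 803, 889 and 485 in sedentary ZT16, adjusted p 0.998. Against sedentary ZT12 (286, 306 and 402 CPM) its log2 fold change was 1.13, past the threshold, and the slow-fibre sum of those libraries was 379, 97.8 and 67.4 CPM against 197, 388 and 507 at +3h ZT12. Myotilin (Myot), an actin-bundling Z-disc protein, read 1037, 859.9 and 863 CPM at +3h ZT0 against 767, 733 and 794 (adjusted p 0.0747). Those groups stood apart, and the gene passed there with DESeq2 (adjusted p 0.0437) and, in edgeR's test, with the slow-fibre covariate (adjusted p 0.0497). At +3h ZT12 it read 1096, 1023 and 1090.3 CPM against 1097, 1083 and 1071 (adjusted p 0.931), with overlap, while against sedentary ZT12 its log2 fold change was 0.35 and passed.

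The 250 bases before the gene start are shown for 3 genes raised at +3h whose single RefSeq window (GRCm38.p6) lay clear of annotated exons; Klhl41 met this too and is left out as the last of the called genes by p. They are shown so that a Z-disc linker, an intermediate filament gene and the actin gene can be compared by their muscle motifs. Each is written 5′ to 3′ toward the gene. Capitals mark the E-box CANNTG, the form MyoD family factors bind, and the CArG box, the form serum response factor binds. The Mypn window is chr10:63203953-63204202, minus strand, the Des window chr1:75360042-75360291, plus strand and the Acta1 window chr8:123894776-123895025, minus strand.
Mypn: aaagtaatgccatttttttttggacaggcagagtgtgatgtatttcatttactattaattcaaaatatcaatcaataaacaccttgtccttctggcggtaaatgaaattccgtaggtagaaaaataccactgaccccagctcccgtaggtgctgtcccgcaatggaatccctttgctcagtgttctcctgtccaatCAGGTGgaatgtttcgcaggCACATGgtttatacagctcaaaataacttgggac
Des: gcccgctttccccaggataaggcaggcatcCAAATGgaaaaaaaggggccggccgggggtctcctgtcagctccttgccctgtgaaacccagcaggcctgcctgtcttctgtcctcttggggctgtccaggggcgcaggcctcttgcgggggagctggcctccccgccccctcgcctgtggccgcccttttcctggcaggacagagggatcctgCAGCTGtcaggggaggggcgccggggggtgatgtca
Acta1: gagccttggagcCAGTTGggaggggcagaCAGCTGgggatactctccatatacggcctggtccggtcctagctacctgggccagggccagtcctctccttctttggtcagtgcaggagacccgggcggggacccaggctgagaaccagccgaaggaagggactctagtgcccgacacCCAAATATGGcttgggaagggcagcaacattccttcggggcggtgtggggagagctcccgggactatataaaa
Mypn holds 2 E-boxes, Des 2 and Acta1 2. Acta1 holds the only CArG box of the 3, starting 73 bases before the gene start.

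The RefSeq promoter table held 32 windows for 30 of the 40 genes, and both strands of each were searched. E-boxes (CANNTG) were found in 26 of the 32 windows (81.2%, against 66.2% of 32851 windows in the table). CArG boxes were found in 5 (15.6% against 1.47%), in Acta1, Actc1, Ldb3 and Myom1. MEF2 sites were found in 5 (15.6% against 2.92%), in Klhl41, Myom3, Myoz2, Synpo2 and Ttn. The MCAT motif CATTCC was found in 7 (21.9% against 12.6%), and the heat shock element GAANNTTC in 0 (against 6.69%). Klhl40, Pdlim3, Pdlim5, Mypn and Unc45b had neither a CArG box nor a MEF2 site in these windows. Windows that overlap annotated exons were not left out of these counts. All 250 bases of the Klhl40 and Unc45b windows lay in annotated exons or the gene, as did 26 bases of the Pdlim3 window. For Pdlim5, with 2 windows, the overlap was not counted. A match is a string of letters and does not show that a factor binds there.

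Some genes around the sarcomere also passed at +3h, where 13.6% of all genes passed in the ZT0 session and 17.2% in the ZT12 session. Of 10 genes that muscle raises under mechanical strain, 5 passed at +3h ZT0, all raised, and 5 at +3h ZT12, of which 4 were raised. Xirp1, an actin-binding repair protein, had log2 fold changes of 3.68 and 2.22 (adjusted p 0.000312 and 0.00662). Flnc, the muscle filamin, had 1.98 and 1.59 (adjusted p 0.000566 and 0.00202). Ankrd1, a titin-binding ankyrin repeat protein, had 4.15 and 2.97 (adjusted p 0.00415 and 0.0195). In the ZT12 session Synpo2l fell by 0.87 on the log2 scale (adjusted p 0.000725).

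The strain genes ranked the exercised libraries as Klhl40 did. At +3h ZT0, Xirp1 read 3766, 1112 and 508 CPM against 137, 138 and 144 in sedentary ZT4, and Flnc 4269, 1992 and 1239 against 658, 577 and 671. At +3h ZT12, Xirp1 read 657, 1151 and 1491 CPM and Flnc 1629.8, 2743 and 2818. Replicate 1 was highest in the ZT0 session for Klhl40, Klhl41, Lmod2, Xirp1 and Flnc, and lowest in the ZT12 session for the same 5. In the ZT0 session replicate 2 was highest for Mypn and replicate 3 for Pdlim5.

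Of 10 chaperones of the sarcomere, 5 passed at +3h ZT0, all raised, against 13.6% of all genes. Bag3, which clears damaged filamin, rose by 1.41 on the log2 scale (adjusted p 0.0027). The small heat shock proteins Hspb1 and Hspb8 rose by 1.73 and 0.91 (adjusted p 0.00473 and 0.0056), and Hsp90aa1 and Cryab also passed. By edgeR's quasi-likelihood test none of the 10 passed at +3h ZT12, against 17.2% of all genes, and 1 did at an unadjusted p under 0.05. The difference between sessions passed in none of the 10 (3 at an unadjusted p under 0.05), against 1.59% of all genes. The 10 summed to 6909, 3506 and 2868 CPM at +3h ZT0, far highest in replicate 1, against 2384, 2141 and 2394 in sedentary ZT4. At +3h ZT12 they summed to 3018, 3664 and 3737 CPM against 2611, 2970 and 2597 in sedentary ZT16, also without overlap. Of 8 genes of sarcomere turnover, the ubiquitin ligase Trim63 (MuRF1) was raised in both sessions, by 2.28 and 3.55 (adjusted p 3.67e-05 and 2.17e-07). Fbxo32 (atrogin-1) was raised in the ZT12 session by 2.61 (adjusted p 6.34e-07), and its response differed between the sessions by 1.93 (adjusted p 0.00471). Of 10 genes of actin capping and turnover, Cap2 was raised in both sessions, by 0.24 and 0.31 (adjusted p 0.0314 and 0.00571), and the capping protein subunit Capza1 fell by 0.42 in the ZT12 session (adjusted p 0.000107). Of 15 costamere genes, 1 passed at +3h ZT0 and 3 at +3h ZT12, against 13.6% and 17.2% of all genes. Among them vinculin (Vcl), raised in both, changed by 0.43 and 0.46 (adjusted p 0.00955 and 0.00421).

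The +3h responses of the 40 genes were not shown to differ between sessions. None of the 40 passed edgeR's quasi-likelihood test of the difference, against 1.59% of all genes. At an unadjusted p under 0.05, 2 of the 40 did, and DESeq2 called 0, while with the session-start sedentary groups as controls 1 passed. The difference, ZT12 minus ZT0 session, was -0.18 ± 0.46 (SE) on the log2 scale for Klhl40, -0.02 ± 0.11 (SE) for Mypn and -0.29 ± 0.12 (SE) for Unc45b (adjusted p 0.272). Des is also among the 9 smooth muscle and pericyte markers, which summed to 3729, 4065 and 4383 CPM at +3h ZT12 against 3079, 3457 and 3099 in sedentary ZT16, a sum that is mostly Des. Of the other 8, Pdgfrb was raised (0.36, adjusted p 0.0461) and Smtn was lowered (-0.43, adjusted p 0.00112). The smooth muscle actin gene Acta2 read 43.7, 50.2 and 56.7 CPM against 61.9, 47.0 and 61.0, overlapping groups, and Myh11 46.9, 52.9 and 50.5 against 46.1, 40.7 and 44.1. Their part in the Des result was not tested.

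In sedentary muscle, Tcap and Mypn stood higher at ZT12 and ZT16 than at ZT0 and ZT4. Across sedentary ZT0, ZT4, ZT12 and ZT16, 6 of the 40 passed the F test, against 17.1% of all genes: the Z-disc genes Tcap, Myot, Actn3, Mypn and Pdlim5, and Mybpc2. Tcap, the cap of titin's Z-disc end, read 1869.8, 1304 and 1646 CPM at ZT0, 1969, 1644 and 1893 at ZT4, 2425, 3261 and 2961 at ZT12 and 2597, 3257 and 2514 at ZT16 (adjusted p 0.00016). Every ZT12 and ZT16 library exceeded every ZT0 and ZT4 library. Mypn read 332, 344 and 332 CPM at ZT0, 357, 348 and 389 at ZT4, 394, 454 and 447 at ZT12 and 425, 428 and 417 at ZT16 (adjusted p 0.00783), with the same split. The share of the 40 that passed lay near that of all genes.

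Myot, by contrast, was highest at ZT16. It read 1049, 831 and 1030.4 CPM at ZT0, 767, 733 and 794 at ZT4, 788, 833 and 893 at ZT12 and 1097, 1083 and 1071 at ZT16 (adjusted p 0.00417). Actn3 peaked at ZT12, where it read 9794, 12129 and 11068 CPM, against 7195, 9309 and 7591 at ZT0, 8717, 9056 and 9565 at ZT4 and 8050.3, 7785 and 8695 at ZT16 (adjusted p 0.00691). Pdlim5 read 339, 303 and 329.6 CPM at ZT0, 272, 307 and 306 at ZT4, 266, 270.2 and 271 at ZT12 and 288, 328 and 345 at ZT16 (adjusted p 0.0253), lowest at ZT12. Mybpc2 read 4689.8, 5608 and 5605 CPM at ZT4, beside the values of the other sedentary groups given above (adjusted p 0.0408). Tcap, Mypn and Myot passed in all 19 alternatives tried, left-out libraries included. The Actn3 call was lost in 1 of 19 alternatives (adjusted p 7.96e-05 to 0.0606 over the 19), that without sedentary ZT12 replicate 2. The Pdlim5 call was lost in 6 of 19 alternatives (adjusted p 0.00435 to 0.0806 over the 19), the fit of the compared libraries alone and those without sedentary ZT0 replicate 1 or 3 or sedentary ZT12 replicate 1 or 2 or 3. The Mybpc2 call was lost in 11 of 19 alternatives (adjusted p 0.0105 to 0.129 over the 19), among them the slow-fibre covariate, the fit of the compared libraries alone and those without sedentary ZT0 replicate 1 or 3 or sedentary ZT4 replicate 2 or 3 or sedentary ZT12 replicate 1 or 2 or 3 or sedentary ZT16 replicate 1 or 2. Without sedentary ZT12 replicate 2, 3 of the 40 passed.

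**Figure D4:**
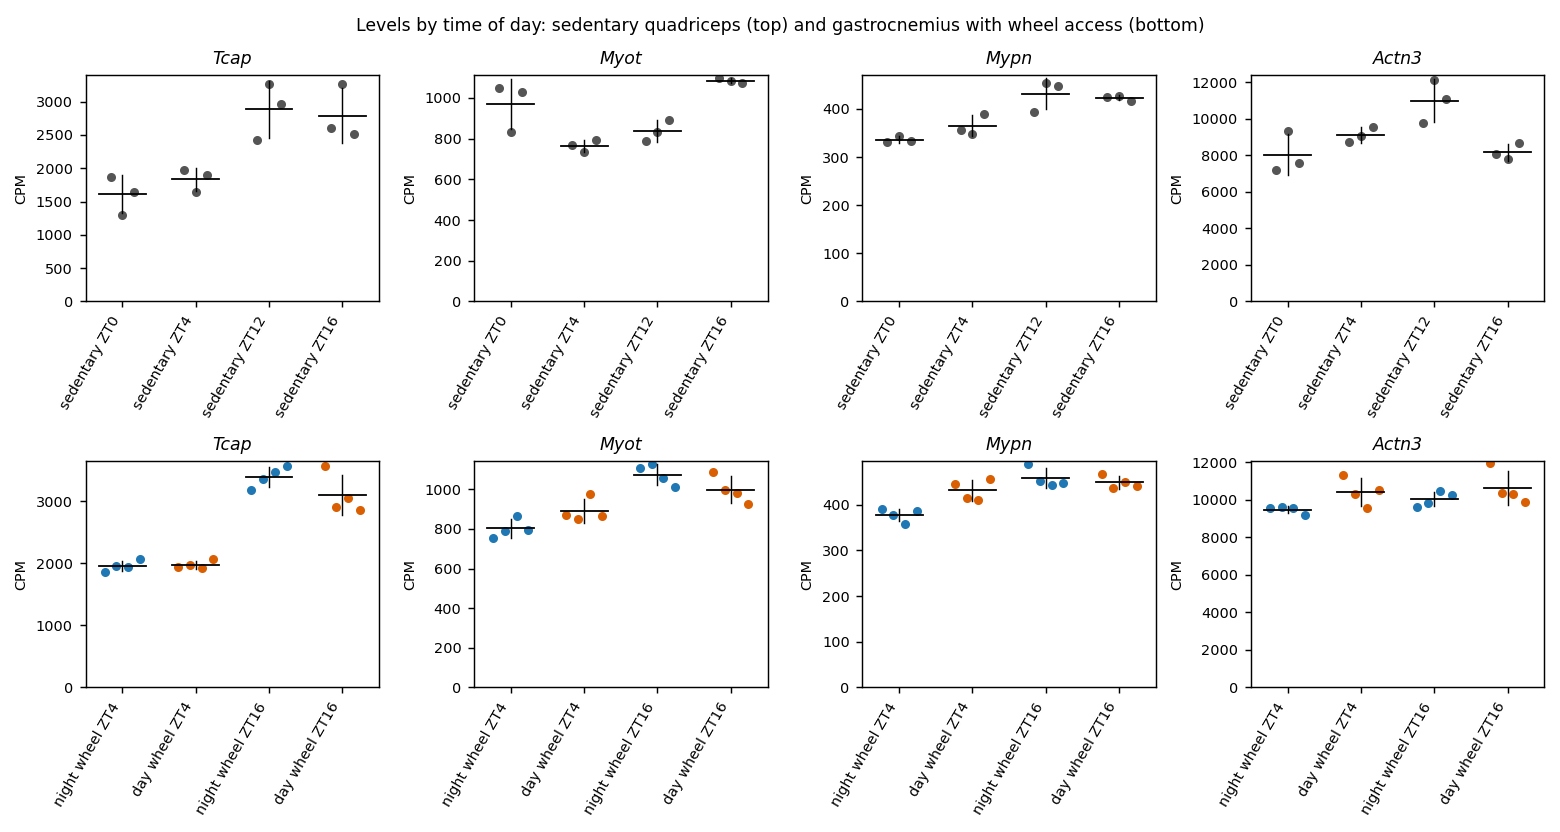
CPM (y axis, from 0) of 4 Z-disc genes in each library by time of day, in sedentary quadriceps (top, grey) and in gastrocnemius (bottom, night wheel access in blue and day wheel access in orange), with the mean and 1 SD. Tcap stands higher at ZT12 and ZT16 than at ZT0 and ZT4 in quadriceps, and higher at ZT16 than at ZT4 in gastrocnemius, which was taken at those 2 times alone.

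Set directly against ZT0, sedentary ZT12 muscle had 5 of the 40 called, 4 raised and 1 lowered, against 16.1% of all genes (7.58% raised and 8.56% lowered). The ZT12 and ZT0 libraries did not overlap in 10 of the 40 genes, against 34.5% of all tested genes. Tcap was 1.79-fold higher (log2 0.84 ± 0.13 (SE), adjusted p 0.00024). Actn3 and Mybpc2 were higher by 0.45 and 0.45 on the log2 scale (adjusted p 0.00388 and 0.0124), Mypn by 0.36 (adjusted p 0.00499), and Pdlim5 was lower (-0.27, adjusted p 0.0122). The slow-fibre sum was 379, 97.8 and 67.4 CPM at ZT12 against 1758, 181 and 569 at ZT0, and the 11 of 13 mitochondrially encoded genes that passed were all lower at ZT12. Of other cell types, 5 of 7 endothelial markers were lower at ZT12, where they summed to 207, 171 and 223 CPM against 297, 257 and 309. Of 10 adipocyte markers 2 were higher, with sums of 4682, 3123 and 2157 CPM against 1548, 2149 and 1485. The 7 satellite cell and regenerating fibre markers summed to 30.7, 35.2 and 37.4 CPM against 43.7, 54.9 and 54.1, lower at ZT12, with 1 of the 7 called, raised. The part of these shifts in the 5 calls was not tested, and with the slow-fibre covariate 5 passed.

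DESeq2 called 8 of the 40 in this comparison, 4 raised and 4 lowered. Without sedentary ZT0 replicate 1 the count was 3 and without replicate 2 it was 8. Actn2 was among the genes lowered with DESeq2 and without replicate 2. The Mybpc2 call was lost in 1 of 13 alternatives (adjusted p 0.00257 to 0.0735 over the 13), that without sedentary ZT0 replicate 1. The Pdlim5 call was lost in 2 of 13 alternatives (adjusted p 0.003 to 0.0611 over the 13), those without sedentary ZT0 replicate 1 or 3, and the Actn3 call in 1 of 13 alternatives (adjusted p 0.000116 to 0.0668 over the 13), the fit of the compared libraries alone. Of the 14 Z-disc genes 4 passed, and of the other genes Mybpc2 alone.

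In gastrocnemius of mice with night wheel access, 6 of the 40 differed between ZT16 and ZT4, 5 higher and 1 lower at ZT16, against 18.8% of all genes (9.41% raised and 9.38% lowered), and ZT16 and ZT4 libraries did not overlap in 5 of the 40 genes, against 21.3% of all tested genes. Tcap had the smallest p, with 3182, 3352, 3460.3 and 3561 CPM at ZT16 against 1863, 1947, 1943 and 2071 at ZT4, a log2 fold change of 0.79 ± 0.06 (SE) with adjusted p 8.04e-08. Myot read 1105, 1126, 1054 and 1011 CPM against 756, 791, 867 and 796 (log2 0.42 ± 0.06 (SE), adjusted p 4.42e-05). Mypn read 489.9, 452, 444 and 447 CPM against 389.6, 377, 358 and 385 (log2 0.28 ± 0.05 (SE), adjusted p 0.000253). In these 3 genes no ZT16 library overlapped a ZT4 library.

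Synpo2, an actin-bundling Z-disc protein with a role in autophagy of filamin, read 458, 417, 394 and 443 CPM at ZT16 against 367, 361, 347 and 395 at ZT4 under night access. ZT16 replicate 3 lay below ZT4 replicate 4, and the log2 fold change was 0.22 ± 0.05 (SE) (adjusted p 0.00797). Lmod2 read 146, 126, 97.3 and 143 CPM against 51.1, 61.4, 65.7 and 72.4 (log2 1.03 ± 0.25 (SE), adjusted p 0.0122), with no overlap. Pdlim3 was lower at ZT16, also without overlap, at 341, 349, 373 and 378 CPM against 396, 432, 452 and 414 (log2 -0.23 ± 0.06 (SE), adjusted p 0.0157). Its call was lost in 3 of 15 alternatives (adjusted p 0.0057 to 0.0637 over the 15), those without night wheel ZT4 replicate 3 or night wheel ZT16 replicate 1 and the slow-fibre covariate. The other 5 calls were lost in none. Beside them, 4 of 7 endothelial, 3 of 6 macrophage and 2 of 6 fibroblast and matrix markers were lower at ZT16 under night access. The endothelial markers summed to 188, 237, 210.1 and 202 CPM at ZT16 against 264, 276, 256 and 273 at ZT4, the macrophage markers to 73.7, 69.9, 76.8 and 81.1 against 87.5, 92.9, 90.2 and 108 and the fibroblast and matrix markers to 661, 719, 669.9 and 861 against 1176, 1001, 966 and 856. Higher at ZT16 were 2 of 10 adipocyte markers, with sums of 2294, 3058, 2211 and 2260.2 CPM against 2096, 1902, 1621 and 1793, and 2 of 7 satellite cell and regenerating fibre markers, with sums of 52.6, 72.9, 64.5 and 43.4 against 33.9, 37.0, 36.8 and 35.5. The part of these shifts in the 6 calls was not tested.

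Under day wheel access 3 of the 40 differed between ZT16 and ZT4, against 14.9% of all genes (7.7% raised and 7.17% lowered). The libraries of both times stood apart in 2 of the 40 genes, against 20.3% of all tested genes. Tcap read 3566, 2899, 3041 and 2862 CPM at ZT16 against 1937, 1971, 1928 and 2069 at ZT4 (log2 0.65 ± 0.06 (SE), adjusted p 1.81e-06), and Synpo2 442, 429, 448 and 413 against 397, 376, 360.1 and 342 (log2 0.23 ± 0.05 (SE), adjusted p 0.00676). In both genes all ZT16 libraries exceeded all ZT4 libraries. Unc45b was lower at ZT16, at 360.0, 379, 361 and 395 CPM against 502, 439, 385 and 452 (log2 -0.25 ± 0.06 (SE), adjusted p 0.00815), although ZT4 replicate 3 lay within the ZT16 range. Tcap and Synpo2 were thus called in the same direction under both schedules, where 5.05% of all genes were. The 3 calls were lost in no alternative, and with the slow-fibre covariate 6 of the 40 passed under day access. No endothelial or macrophage marker passed there by edgeR's quasi-likelihood test, with 1 of 7 and 0 of 6 at an unadjusted p under 0.05. Of the satellite cell and regenerating fibre markers 3 of 7 were higher at ZT16, with sums of 75.2, 54.8, 48.7 and 54.3 CPM against 35.8, 37.2, 39.2 and 34.7, and their part in the 3 calls was not tested.

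Day and night access were compared at each time, where schedule and current access to a wheel cannot be told apart. At ZT4, 5 of the 40 were higher under day than night access and none lower, against 13.1% of all genes (6.36% raised and 6.78% lowered). Day and night libraries did not overlap in 7 of the 40 genes, against 21.1% of all tested genes. Titin, Myom1 and Cmya5, 3 of the 6 titin and M-band genes, were among them. Ttn read 11316, 10670.5, 11482 and 10750.2 CPM under day access against 10593, 9757, 9775 and 9716 under night access (log2 0.15 ± 0.05 (SE), adjusted p 0.0355). Myom1, the main M-band crosslinker, read 1762, 1675, 1720.5 and 1768 CPM against 1553, 1514, 1508 and 1649.6 (log2 0.15 ± 0.04 (SE), adjusted p 0.0172). Cmya5 (myospryn), which binds titin and desmin, read 3496, 3202, 3292 and 3448 CPM against 3082, 3019.6, 2881 and 2927 (log2 0.17 ± 0.04 (SE), adjusted p 0.0143). The day and night libraries did not overlap in any of these 3 genes, and the differences were small, the largest 1.13-fold.

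Mypn read 445, 414, 409 and 456 CPM at ZT4 under day access against 389.6, 377, 358 and 385 under night access (log2 0.19 ± 0.05 (SE), adjusted p 0.00964). Lmod2 read 99.7, 118, 208 and 87.2 CPM against 51.1, 61.4, 65.7 and 72.4 (log2 1.03 ± 0.25 (SE), adjusted p 0.0184), with day replicate 3 highest. Neither gene's groups overlapped. The Ttn call was lost in 6 of 15 alternatives (adjusted p 0.00787 to 0.0983 over the 15), those without night wheel ZT4 replicate 2 or 3 or 4 or day wheel ZT4 replicate 1 or 3 or 4. The Myom1 call was lost in 3 of 15 alternatives (adjusted p 0.00102 to 0.0603 over the 15), those without night wheel ZT4 replicate 2 or 3 or day wheel ZT4 replicate 4. The Cmya5 call was lost in 1 of 15 alternatives (adjusted p 0.00124 to 0.0501 over the 15), that without night wheel ZT4 replicate 3, and the Lmod2 call in 2 of 15 alternatives (adjusted p 0.00145 to 0.0703 over the 15), that without night wheel ZT4 replicate 1 and the fit of the compared libraries alone. The Mypn call was lost in none. The count of 5 became 2 without night wheel ZT4 replicate 3, 3 without night wheel ZT4 replicate 2 or day wheel ZT4 replicate 4, and 8 with the slow-fibre covariate. Nebulin, the other giant of the filaments, read 5067, 4781, 5020.1 and 4855 CPM against 4751, 4601, 4315 and 4538 at ZT4, without overlap but with adjusted p 0.11. Of 7 endothelial markers 5 were lower under day access at ZT4, summing to 206, 229, 200.4 and 212 CPM against 264, 276, 256 and 273. The 6 macrophage markers, 1 of them lower, summed to at most 84.8 CPM under day and at least 87.5 under night access, without overlap. The 6 fibroblast and matrix markers, 1 of them lower, summed to 892, 738, 627 and 758 CPM against 1176, 1001, 966 and 856, with overlap. Of 10 adipocyte markers 2 were higher, with overlapping sums, and of 9 smooth muscle and pericyte markers 2 were lower. The part of these shifts in the 5 calls was not tested.

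At ZT16 none of the 40 differed between schedules by edgeR's quasi-likelihood test, against 0.565% of all genes (0.275% raised and 0.289% lowered), and libraries stood apart in 4 of the 40 genes, against 6.67% of all tested genes. At an unadjusted p under 0.05, 7 did, and DESeq2 called 2. Actn2, Actn3 and Acta1 overlapped between schedules at both times: at ZT16 Actn2 read 869, 709, 852 and 555 CPM under day and 919, 919, 810.4 and 905 under night access, and Actn3 11939, 10347, 10310.0 and 9896 and 9601, 9845, 10445 and 10267. Acta1 read 32959, 30509, 28793 and 29494 CPM under day and 27128, 31319, 27860.0 and 30091 under night access. Smyd1, the myosin methyltransferase, kept to a narrow range, with all 16 gastrocnemius libraries between 523 and 578 CPM.

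**Figure D5:**
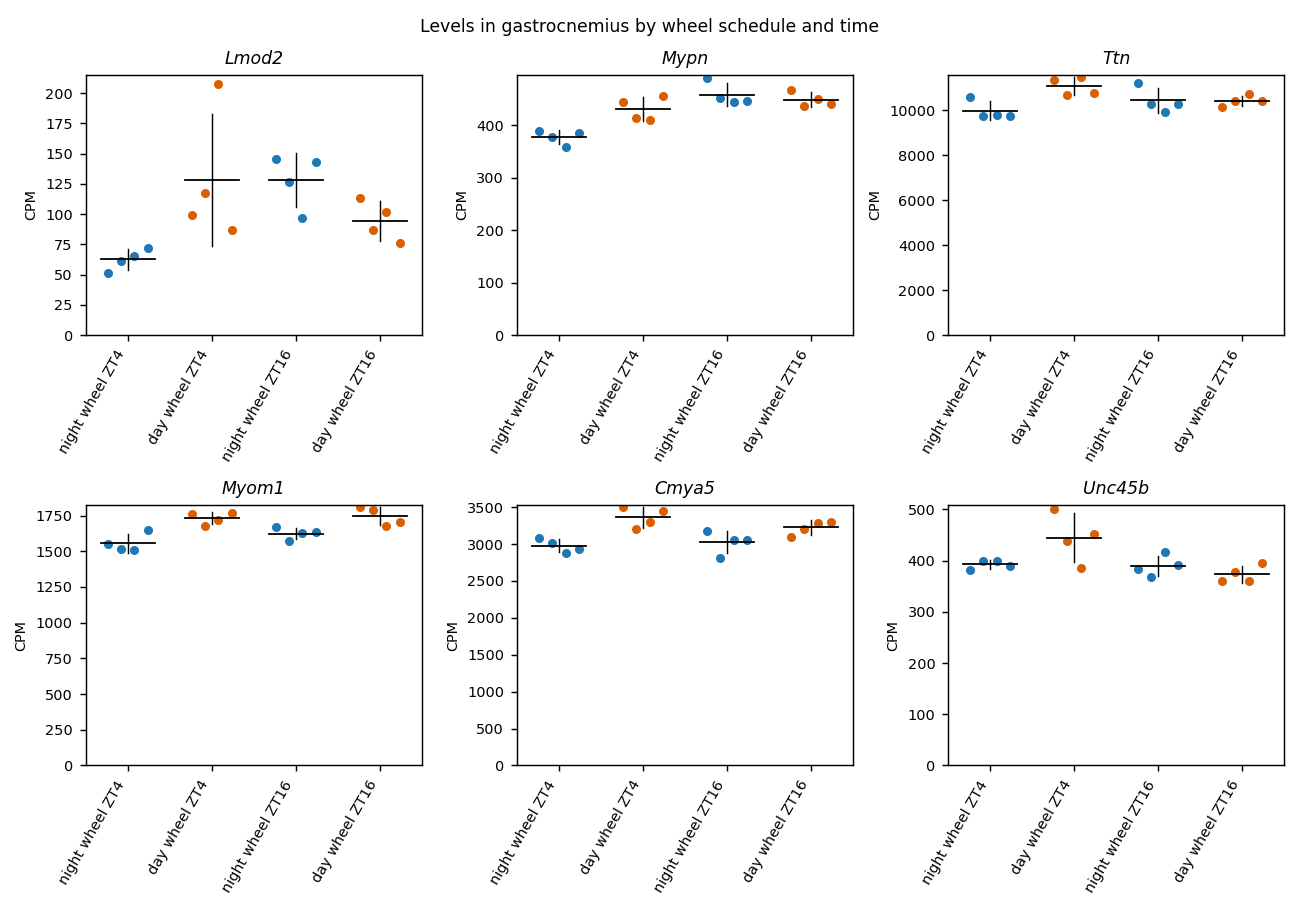
CPM (y axis, from 0) of 6 genes in each gastrocnemius library under night (blue) and day (orange) wheel access at ZT4 and ZT16, with the mean and 1 SD over 4 libraries. At ZT4 the day libraries of Lmod2, Mypn, Ttn, Myom1 and Cmya5 stand above the night libraries, and at ZT16 they overlap for all but Myom1.

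The time effect differed between schedules for 2 of the 40, against 9.74% of all genes (4.68% raised and 5.07% lowered). For Lmod2 the difference, day minus night, was -1.47 ± 0.35 (SE) on the log2 scale (adjusted p 0.0202). The gene was higher at ZT16 than ZT4 under night access and under day access read 113, 87.0, 101 and 75.8 CPM at ZT16 against 99.7, 118, 208 and 87.2 at ZT4, where the groups overlapped. For Mypn it was -0.22 ± 0.06 (SE) (adjusted p 0.0341), with 468, 437, 450.4 and 440.2 CPM at ZT16 against 445, 414, 409 and 456 at ZT4 under day access. The Lmod2 call was lost in none of 23 alternatives. The Mypn call was lost in 8 of 23 alternatives (adjusted p 0.0111 to 0.0814 over the 23), those without night wheel ZT4 replicate 2 or 3 or day wheel ZT4 replicate 1 or 4 or night wheel ZT16 replicate 1 or day wheel ZT16 replicate 2 or 3 or 4. The count was 1 without night wheel ZT4 replicate 2, day wheel ZT4 replicate 1 or 4, night wheel ZT16 replicate 1 or day wheel ZT16 replicate 2, 3 or 4, and 4 without day wheel ZT16 replicate 1. The difference for Myot was -0.26 with adjusted p 0.0524. It passed with DESeq2 (adjusted p 0.0302), the other scalings, no filter and the replicate block. It also passed without night wheel ZT4 replicate 3, night wheel ZT16 replicate 4 or day wheel ZT16 replicate 1, and in the remaining alternatives it did not.

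Related genes outside the 40 also differed by time. Mylk4, a myosin light chain kinase, was higher by 1.38 on the log2 scale in sedentary ZT12 against ZT0 (adjusted p 0.000787), and by 1.44 and 1.18 at ZT16 against ZT4 under night and day access (adjusted p 6.63e-05 and 0.000433). Klhl31, a kelch relative of Klhl40 that turns over filamin, was lower by 0.44, 0.57 and 0.52 in the same 3 comparisons (adjusted p 0.00227, 1.34e-06 and 5.79e-06). Among the strain genes, Xirp1 was higher by 0.99 on the log2 scale under day access at ZT4 (adjusted p 0.000669), at 290.0, 251, 329.6 and 232 CPM against 133, 145, 115 and 162. Abra (STARS), an actin-binding activator of serum response factor signalling, was higher by 1.56 there (adjusted p 0.00036), and its time effect differed between schedules by -2.22 (adjusted p 0.000338).

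The 23 genes with no call include most of the contractile machinery itself. Of the thin filament core, Acta1 alone was called, and Tnnt3, Tnni2, Tnnc2, Tpm1 and Tpm2 had log2 fold changes between -0.17 and 0.21 in every comparison of 2 groups. The light chains Mylpf and Myl1 stayed between -0.10 and 0.26. Of the thick filament genes Mybpc1 and Mybph passed in none. The M-band genes Myom2, Myom3 and Obsl1 and the Z-disc genes Ldb3, Pdlim7, Myoz1, Myoz2, Myoz3 and Actn2 passed in none. Ldb3 and Myoz1 stayed within -0.06 to 0.20 and -0.02 to 0.19. Lmod3, Tmod4, Neb, Actc1 and Smyd1 complete the 23.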

How the data were processed

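Polyadenylated RNA of 40 libraries (24 quadriceps, 16 gastrocnemius) was sequenced in 2 lanes each. The authors deposited estimated counts per gene and lane. The submitters' processing notes name DESeq2 1.26.0, bcl2fastq 2.20.0.422 and kallisto 0.46.2 as tools, and the builds GRCm38.p6 and mm10, but no role or order; annotation and settings are not given in the sources used here. No read total is known beyond these counts, whose sums per library are given with the groups.

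Here each library's lane counts were added up and rounded. Of 23621 gene rows, 3288 were 0 throughout and 23614 matched a RefSeq symbol; the other 7 held 0.00139% of counts. Genes were filtered with edgeR's filterByExpr (minimum count 10) and scaled by TMM, and all quadriceps libraries shared 1 fit and all gastrocnemius libraries another. Tests were edgeR's quasi-likelihood tests (robust; R 4.3.3, edgeR 4.0.16, limma 3.58.1) with Benjamini-Hochberg adjustment over all tested genes and a threshold of 0.05. Levels are CPM with TMM-scaled library sizes; levels between genes are CPM per kb of exon (GENCODE M21 basic, union of exons). The scripts were tested on simulated data.

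Sedentary ZT4 and ZT16 were the controls of the +3h groups, ZT0 and ZT12 of the +0h groups. Alternatives were DESeq2 1.42.0, other scalings, no filter, a replicate block, fits of the compared libraries alone, the other sedentary control of the session, each library left out and, added after seeing the data, the slow-fibre level as a covariate.

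The members and the lists of related genes were chosen with earlier results of these data known. Values by library are given for members that passed, at most 8 a comparison by smallest p, and for Acta1, Ttn, Neb, Actn2, Actn3, Myot and Smyd1 whatever they did; of each other list, up to 3 genes with the smallest p. Actc1, Myoz2, Myom3, Mybpc1 and the levels of Klhl40 and Klhl41 where they did not pass were added after their values were seen.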

Additional observations from a re-analysis of the deposited data

Results flagged for a closer look

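Within the gastrocnemius groups of 4, the library at 1 end lay farther from the rest than Dixon's critical value for 4 libraries allows in 10 of 160 pairs of gene and group, where chance gives about 1 in 20. Of the 10, 5 were in night wheel ZT4. There Ttn read 10593 CPM in replicate 1 against 9775 in the nearest library, Tnnc2 read 9472 CPM in replicate 1 against 9180.1 in the nearest library, Mybpc1 read 1013 CPM in replicate 3 against 949 in the nearest library and Myoz1 read 2511 CPM in replicate 4 against 2342 in the nearest library. In the same group Obsl1 read 33.3 CPM in replicate 4 against 49.5 in the nearest library. The night wheel ZT4 value of Ttn in replicate 1 enters its call against day access, as the night library nearest to the day libraries. That call was kept without it. In night wheel ZT16, Actc1 read 465 CPM in replicate 2 against 281 in the nearest library, Actn2 read 810.4 CPM in replicate 3 against 905 in the nearest library and Myoz1 read 2084 CPM in replicate 2 against 2432 in the nearest library. In day wheel ZT4, Myot read 977 CPM in replicate 3 against 869 in the nearest library, and in day wheel ZT16, Pdlim5 read 395 CPM in replicate 1 against 331 in the nearest library.

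For 2 genes the effect of time differed between the schedules, by edgeR's quasi-likelihood test with Benjamini-Hochberg adjustment. The difference in log2 fold change, day minus night access, was -0.22 for Mypn and -1.47 for Lmod2, with adjusted p 0.0341 and 0.0202.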

How the results depend on the processing

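Over 2055 alternatives of 129 named gene values, 1939 kept their side of the threshold, 89 lost the call, 24 gained one and 3 changed sign with a call before or after. A change of sign between values that both lacked a call was counted as kept. Those 3 came with sedentary ZT12 in place of ZT16 at +3h ZT12: the log2 fold change became 1.13 for Actn2, -0.020 for Actn3 and 0.35 for Myot. Many of the named values had no call to lose, so these totals do not measure how firm the calls were. Some calls were lost in none of their alternatives. Others were lost often: Mybpc2 among sedentary times in 11 of 19, Unc45b at +0h ZT0 in 8 of 14, and Lmod2 and Klhl41 at +3h ZT0 each in 7 of 14. The count of the 40 genes past the threshold moved by more than 1.5 times as follows. With DESeq2 it was 4 at +0h ZT0, 1 at +0h ZT12, 8 in sedentary ZT12 against ZT0 and 2 for day against night access at ZT16. With the slow-fibre covariate it was 1 at +0h ZT0, 1 at +0h ZT12, 8 for day against night access at ZT4 and 6 for ZT16 against ZT4 under day access. With the compared libraries alone it was 0 at +0h ZT0, 1 at +0h ZT12 and 4 at +3h ZT0. With the other sedentary control it was 0 at +0h ZT0, 4 at +0h ZT12 and 1 for the difference of +3h responses. With the replicate block, 1 gene passed at +0h ZT12 and 3 for the difference of the time effects between schedules, and the other 11 counts moved by less than 1.5 times; in no comparison did every pair of same-numbered libraries correlate above 0.1, so the numbers were not taken to pair libraries.

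Leaving out 1 library at a time gave 0 to 3 at +0h ZT0, 0 to 1 at +0h ZT12, 5 to 7 at +3h ZT0, 6 to 9 at +3h ZT12, 0 to 0 and 0 to 0 for the differences of +0h and +3h responses, 3 to 7 among sedentary times, 3 to 8 in sedentary ZT12 against ZT0, 2 to 6 and 0 to 0 for day against night access at ZT4 and ZT16, 5 to 7 and 3 to 4 for ZT16 against ZT4 under night and day access, and 1 to 4 for their difference. Over all genes, the calls with their range over alternatives were 1029 (390 to 1447) at +0h ZT0, 695 (380 to 1180) at +0h ZT12, 2052 (1105 to 2355) at +3h ZT0, 2602 (1724 to 2889) at +3h ZT12, 0 (0 to 915) and 240 (107 to 448) for the differences, 2578 (1558 to 3474) among sedentary times, 2436 (1283 to 2821) for ZT12 against ZT0, 1907 (1139 to 2284) and 82 (19 to 374) for day against night access, 2729 (1927 to 2932) and 2159 (1682 to 2415) for ZT16 against ZT4, and 1415 (1021 to 1670) for their difference. No scaling moved the median of all genes by more than 0.1 on the log2 scale.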
